A study of Mus musculus with 52 samples.

Results

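The 78 genes described here are named for proteins of the mitochondrial ribosome, and all but Mrps36 encode one. They are the rows of the deposited count table whose Ensembl identifier belongs to a protein-coding mouse gene with a symbol that starts with Mrpl or Mrps followed by a digit, 78 of 55487 rows. Of these, 49 carry an Mrpl and 29 an Mrps symbol. RNA was measured by total RNA sequencing in gastrocnemius, the large calf muscle, of aged male C57BL/6 mice of 22 to 24 months, with 52 libraries in 13 groups of 4. All unloaded and reloaded mice had been through hindlimb unloading, which keeps body weight off the hind limbs and leads to wasting, and reloading returned that weight for 7 or 14 d. The groups were HU_M, HU_L, HU_ML and HU_W (unloaded), RL7_M, RL7_L, RL7_ML and RL7_W (7 d of reloading), RL14_M, RL14_L, RL14_ML and RL14_W (14 d of reloading) and AMB_W (ambulatory). The last letters name the drink, which was metformin (M), leucine (L), both (ML) or plain water (W). Metformin, used to treat diabetes, inhibits respiratory complex I, and the branched-chain amino acid leucine activates mTORC1. The length of unloading and the drug doses are not given in the sources used here. A library is named by its group and the number in its title, as in HU_W 2.

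Mitochondria keep a small genome of their own, and the mitochondrial ribosome translates its messages, all of which encode subunits of the respiratory chain and of ATP synthase. The ribosome is built from RNAs made inside the organelle (mt-Rnr1 in the small subunit, mt-Rnr2 in the large one) and from proteins whose genes lie in the nucleus, are translated in the cytosol and are imported. Many of these proteins descend from bacterial ribosomal proteins, and others were added in the mitochondrial lineage. In muscle, which depends on oxidative metabolism, their transcripts belong to the programme of mitochondrial biogenesis that PGC-1 coactivators, NRF1, GABPA and ERR factors are known to drive.

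By role, 51 members encode proteins of the large subunit and 26 proteins of the small one. Mrps30 and Mrps18a belong to the large subunit despite their symbols. Mrps36, now known as a subunit of the 2-oxoglutarate dehydrogenase complex, is no core ribosomal protein. Of the ribosomal members, 46 have a bacterial counterpart and 31 are specific to mitochondria. The 78 genes lie on 17 chromosomes, with at most 11 on one of them, chromosome 11. The exons of 33 members overlap those of another gene, in 28 cases on the opposite strand, and reads of such pairs may not be told apart, as the sources used here do not state the strand setting of the counting. The overlap exceeded 20% of exon bases for 9 members, with 88% for Mrpl53 (Gm42688), 69.8% for Mrps25 (Nr2c2) and 63.4% for Mrps34 (Mapk8ip3). Processed pseudogenes are annotated for Mrpl23, Mrpl48 and Mrps36, whose counts could be shared with these copies.

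Libraries held 15605044 to 32492548 counts in total, and the members took 0.082% to 0.142% of them. All 78 passed the filter on low counts, beside 16668 genes in all. Transcripts of liver stood out in 12 libraries with more than 16 CPM (counts scaled by library size and TMM factors) of Alb, among them HU_W 1 and 2 and RL14_W 5. Levels of n-R5-8s1, a 5.8S rRNA gene whose product the depletion step should remove, ran from 0.294 to 0.998 CPM in RL14_W and from 0.379 to 3.28 CPM in RL7_M, RL7_L and RL7_ML, against 7.64 to 14.5 CPM in AMB_W, so its level differed between groups. The skeletal muscle markers (Acta1, Ckm, Myh4, Myh1, Tnnt3, Mylpf and Pvalb) summed to 79700 to 85000 CPM in HU_W and to 86300 to 97300 CPM in AMB_W. In whole muscle, fewer cells of a type and less RNA per cell cannot be told apart.

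Levels of the members were moderate and spread widely. Their median was 4.37 CPM per kilobase of exon, and 72 of the 78 lay above the median gene tested in mean CPM. The highest per kilobase were Mrps21 with 38.9, Mrpl18 with 23.6 and Mrpl42 with 22.5, and the lowest were Mrps10 with 1.65, Mrps11 with 1.42 and Mrpl53 with 0.262. Mrpl53 had between 0 and 14 counts per library, so its fold changes carry little information. Across the 13 groups the means of a member usually stayed close together: the range from the lowest to the highest group mean had a median of 0.50 on the log2 scale and stayed under 1 for 70 of 78 members. Mrps17, Mrps10 and Mrpl24 varied least, with ranges of 0.19, 0.21 and 0.22. Apart from Mrpl53 (1.59), Mrpl36 (1.26) and Mrpl4 (1.24) varied most.

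The lowest of the 13 group means fell in an unloaded group for 41 members (beside 38.5% of all genes tested), in a group at 7 d of reloading for 14 (31.3%), in one at 14 d for 23 (23.3%) and in AMB_W for 0 (6.96%). The highest fell in an unloaded group for 7 members (beside 32.3% of all genes), at 7 d of reloading for 48 (33.1%), at 14 d for 12 (27.4%) and in AMB_W for 11 (7.27%). RL7_ML held the highest mean of 24 members, beside 10.6% of all genes, and this count rested in part on RL7_ML 1, with a mean log2 CPM over the members of 3.87, beside 3.58 to 3.69 in the other libraries. Without it RL7_ML was highest for 12 members, beside 9.8% of all genes, and the groups at 7 d for 41, beside 32.8%. The mean log2 CPM over the 78 genes was 3.36 ± 0.09 in HU_M, 3.45 ± 0.07 in HU_L, 3.50 ± 0.11 in HU_ML and 3.38 ± 0.08 in HU_W (SD, n = 4 each). At 7 d of reloading it was 3.6 ± 0.13 in RL7_M, 3.58 ± 0.09 in RL7_L, 3.68 ± 0.13 in RL7_ML and 3.63 ± 0.03 in RL7_W. At 14 d it was 3.52 ± 0.11 in RL14_M, 3.54 ± 0.09 in RL14_L, 3.42 ± 0.19 in RL14_ML and 3.57 ± 0.10 in RL14_W, and in AMB_W it was 3.56 ± 0.05. The HU_W libraries lay between 3.31 and 3.49, the AMB_W libraries between 3.49 and 3.61 and the RL7_W libraries between 3.59 and 3.67.

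**Figure D1:**
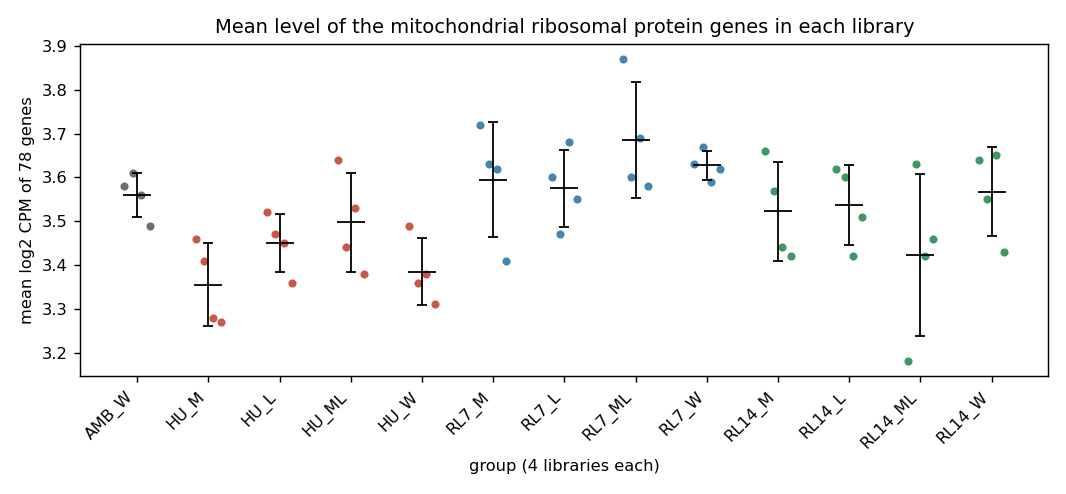
Mean log2 CPM of the 78 mitochondrial ribosomal protein genes (vertical axis) in each of 52 libraries, by group (horizontal axis); points are libraries, bars the group mean and SD (n = 4). The HU_W libraries lie between 3.31 and 3.49, the RL7_W libraries between 3.59 and 3.67, and RL14_ML has the widest spread, with RL14_ML 1 at 3.18.

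Members that changed in any direction were sought with a quasi-likelihood F test of edgeR over the 13 groups, adjusted by Benjamini-Hochberg over all 16668 genes. It called 34 of 78 members at an adjusted p under 0.05, 22 of the large and 12 of the small subunit, beside 40% of all genes tested, so the share is close to the background. The smallest p-values were those of Mrpl17 (adjusted p = 1.97e-06), Mrps12, Mrps16, Mrpl4, Mrpl36, Mrpl11, Mrps24 and Mrpl34. With the 5.8S gene as a covariate 8 members were called, beside 13.8% of all genes, and with a correction for GC content 22, beside 32.3%.

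In the 15 comparisons of pairs of groups, 17 members gave 24 calls, of which 20 lay in 3 comparisons that use HU_W. Those are HU_W against AMB_W, RL7_W against HU_W and RL14_W against HU_W. They share the 4 HU_W libraries, so a low or high HU_W value enters all of them.

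**Figure D2:**
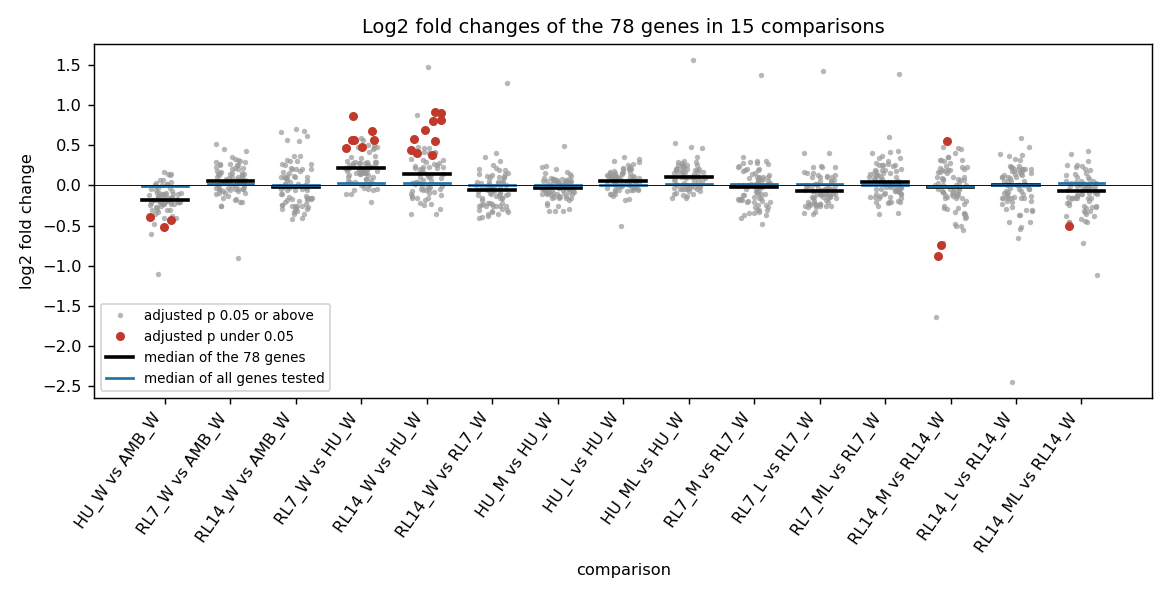
Log2 fold change (vertical axis) of each of the 78 genes in 15 comparisons (horizontal axis); red points have an adjusted p under 0.05, black bars are the median of the 78 genes and blue bars the median of all genes tested. The black bar lies at -0.18 in HU_W against AMB_W and at 0.22 in RL7_W against HU_W, while the blue bars stay between -0.01 and 0.03.

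Unloading was asked about with HU_W against AMB_W. The log2 fold change was negative for 66 of the 78 members and positive for 12, while 48.7% of all genes tested were positive. The members' median was -0.18, against -0.01 over all genes. Of the members, 3 fell (adjusted p under 0.05) and 0 rose, beside 0.834% of all genes lower and 1.95% higher. In 17 members every HU_W library lay below every AMB_W library, beside 6.17% of all genes. The large subunit had a median of -0.19 and 2 calls, and the small one -0.15 and 1 call. Mitochondria-specific proteins had a median of -0.19 and those with a bacterial counterpart -0.17.

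Mrpl17, a large-subunit protein with a bacterial counterpart, lies on chromosome 7 of GRCm38 from 105803206 to 105811099, on the minus strand. It had 16.03, 15.1, 13.9 and 14.9 CPM in HU_W, against 18.9, 20.1, 20.1 and 19.5 CPM in AMB_W. The groups did not overlap, and the log2 fold change was -0.39 ± 0.10 SE (edgeR adjusted p = 0.0163). Without AMB_W 3 or without HU_W 3 the adjusted p was above 0.05, and it reached 0.0727 at most over the 8 fits that leave out 1 library.

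Mrps2, a small-subunit protein with a bacterial counterpart, lies on chromosome 2 from 28468066 to 28471178, on the plus strand. Its level was 9.20, 8.56, 9.84 and 8.91 CPM in HU_W, against 11.6, 13.4, 12.1 and 12.2 CPM in AMB_W. Every HU_W library was below every AMB_W library (log2 fold change -0.43 ± 0.12 SE, edgeR adjusted p = 0.0268). The call was lost without AMB_W 3, AMB_W 5, HU_W 1, HU_W 2 or HU_W 4.

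Mrpl54, a mitochondria-specific protein of the large subunit on chromosome 10 from 81264713 to 81266934 on the minus strand, had 14.1, 12.5, 13.5 and 11.3 CPM in HU_W, against 20.1, 17.5, 16.6 and 19.8 CPM in AMB_W. Here too the groups did not overlap, with a log2 fold change of -0.52 ± 0.15 SE (edgeR adjusted p = 0.0484). This call was lost without any 1 of the 8 libraries (adjusted p 0.0543 to 0.169). The count of 3 became 0 without AMB_W 3 and 1 without AMB_W 5, HU_W 1, HU_W 2, HU_W 3 or HU_W 4. None of the 3 was called without the 12 libraries rich in Alb, a set that holds HU_W 1 and 2, or with no filter on low counts. Over all genes these fits called 123 of 17023 and 318 of 36274. Without those 12 libraries the log2 fold changes were -0.45 for Mrpl17, -0.40 for Mrps2 and -0.57 for Mrpl54, and the members' median was -0.23, with 9 members positive.

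Members with well-known roles mostly shared the sign without passing the test. Mrpl58, a peptidyl-tRNA hydrolase built into the large subunit that frees stalled ribosomes, averaged 8.48 ± 0.73 CPM in HU_W and 10.7 ± 0.43 CPM in AMB_W (SD, n = 4 each; log2 fold change -0.33, edgeR adjusted p = 0.19). Mrps12, the small-subunit protein of the decoding centre, had a log2 fold change of -0.35 ± 0.22 SE (edgeR adjusted p = 0.518). Mrpl45, which ties the ribosome to the inner membrane beside the exit tunnel, had -0.30 ± 0.14 SE (edgeR adjusted p = 0.337). Mrpl3 stood at 0.00 ± 0.10 SE, with 19.5 CPM in both groups.

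Among lists of related genes, the same comparison gave medians of -0.29 for 13 translation factors, -0.21 for 5 further mitoribosomal proteins without an Mrp symbol, -0.15 for 19 mitochondrial aminoacyl-tRNA synthetases, -0.13 for 25 assembly factors and 0.00 for 12 regulators of biogenesis. The mRNAs of the mitochondrial genome had a median of -0.11, the 36 nuclear subunits of respiratory complex I -0.13 and the 81 cytosolic ribosomal proteins tested 0.12. Of the last 2 lists, 0 genes changed in either direction. Taco1, a translational activator of the mitochondrial message for cytochrome c oxidase subunit 1, fell to 11.9 ± 2.56 CPM in HU_W, against 20.5 CPM in AMB_W (log2 fold change -0.79 ± 0.14 SE, edgeR adjusted p = 0.000388). It stayed called without any 1 library and in all 11 other settings. Tfb1m, the methyltransferase of the small mitochondrial rRNA, fell to 4.10 CPM in HU_W, against 5.99 CPM in AMB_W (log2 fold change -0.55, edgeR adjusted p = 0.03), a call lost without any 1 of 5 libraries.

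Other values moved with this comparison. Of 6 red blood cell markers 5 were higher in HU_W, and their sum ran from 27.6 to 59.8 CPM in HU_W and from 2.85 to 6.23 CPM in AMB_W. The 6 liver markers summed to between 0.226 and 39.1 CPM in HU_W and to between 0.312 and 5.65 CPM in AMB_W, with 0 calls. Of 6 fibroblast markers 2 were lower in HU_W, with sums of 421 to 480 CPM in HU_W and 384 to 549 CPM in AMB_W. Markers of adipocytes, endothelium, macrophages, slow fibres and skeletal muscle gave 0 calls, and no marker was at 0 in both groups. The part of these cell types in the members' values was not tested.

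The first week of reloading was asked about with RL7_W against HU_W. A positive log2 fold change was found for 70 of 78 members, beside 53.4% of all genes, with a median of 0.22, against 0.03 over all genes tested. Of the members, 7 rose and 0 fell, beside 1.97% of all genes higher and 2.9% lower, and in 26 members every RL7_W library lay above every HU_W library, beside 8.39% of all genes. The large subunit had a median of 0.23 with 5 of 51 members called, and the small one 0.17 with 2 of 26 called. By class, 5 of the 46 members with a bacterial counterpart and 2 of the 31 mitochondria-specific ones rose.

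Mrpl17 had 20.9, 23.01, 20.1 and 19.3 CPM in RL7_W, against 16.03, 15.1, 13.9 and 14.9 CPM in HU_W. The groups were apart, the log2 fold change was 0.47 ± 0.10 SE (edgeR adjusted p = 0.0017), and the call held without any 1 library and in all 11 other settings. Mrpl58, on chromosome 11 from 115403752 to 115412674 on the plus strand, had 12.3, 12.04, 13.02 and 12.6 CPM in RL7_W, against 9.14, 8.94, 8.31 and 7.54 CPM in HU_W. Its log2 fold change was 0.56 ± 0.13 SE (edgeR adjusted p = 0.0056), also called without any 1 library and in the 11 other settings.

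Mrps2 had 11.2, 12.3, 12.2 and 15.2 CPM in RL7_W, against 9.20, 8.56, 9.84 and 8.91 CPM in HU_W (log2 fold change 0.48 ± 0.12 SE, edgeR adjusted p = 0.00817). RL7_W 4 was the highest library, and the call was lost without it. Mrpl34, a small large-subunit protein with a bacterial counterpart, had 9.64, 11.7, 8.93 and 11.04 CPM in RL7_W, against 7.16, 5.69, 7.35 and 5.5 CPM in HU_W (log2 fold change 0.68 ± 0.17 SE, edgeR adjusted p = 0.00857). It was lost without HU_W 2 or RL7_W 2.

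Mrpl45, on chromosome 11 from 97315716 to 97329920 on the plus strand, had 19.5, 27.04, 20.9 and 22.9 CPM in RL7_W, against 15.8, 15.1, 15.1 and 15.1 CPM in HU_W (log2 fold change 0.57 ± 0.14 SE, edgeR adjusted p = 0.0101). The HU_W libraries were close together and RL7_W 2 was the highest; without RL7_W 2 the adjusted p was 0.0859. Mrps12, on chromosome 7 from 28739641 to 28741820 on the minus strand, had 10.96, 8.01, 7.65 and 8.55 CPM in RL7_W, against 5.73, 4.77, 4.07 and 4.62 CPM in HU_W, a 1.83-fold difference (log2 fold change 0.87 ± 0.22 SE, edgeR adjusted p = 0.0103). Again the groups did not overlap, and the call was lost without RL7_W 1 (adjusted p = 0.0618). It was also lost with the 5.8S gene as a covariate (edgeR adjusted p = 0.0645). Mrpl12, the stalk protein of the large subunit, which also binds the mitochondrial RNA polymerase, had 35.2, 38.4, 32.5 and 35.7 CPM in RL7_W, against 28.6, 20.6, 24.3 and 21.8 CPM in HU_W. All RL7_W libraries were higher (log2 fold change 0.57 ± 0.17 SE, edgeR adjusted p = 0.0359), but the call was lost without any 1 of 6 libraries.

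The other stalk proteins did not pass: Mrpl10 had a log2 fold change of 0.48 (edgeR adjusted p = 0.0909) and Mrpl11 one of 0.29 (edgeR adjusted p = 0.172). Mrps36 had 0.45 ± 0.17 SE (edgeR adjusted p = 0.105), with 13.1 CPM in RL7_W and 9.58 CPM in HU_W. Mrpl22, Mrpl23 and Mrpl24, which surround the tunnel exit, had 0.29, 0.18 and -0.05, and none passed. Of the 3 paralogues that descend from 1 bacterial protein, Mrps18a had 0.22, Mrps18b 0.03 and Mrps18c -0.10. Only Mrps18c is counted here as having a bacterial counterpart, and Mrps18a and Mrps18b as mitochondria-specific. The classes thus do not follow descent in every case. Without the 12 Alb-rich libraries 3 members were called in place of 7, beside 248 of 17023 genes in place of 813 of 16668. Without RL7_W 2 there were 4 members. With the 5.8S gene as a covariate 6 of the 7 were called, beside 471 of 16668 genes. With the GC correction 6 members were called, 5 of them among the 7, beside 1044 of 16642 genes. Mrpl34 and Mrpl12 lost the call with that correction. The exons of Mrpl12 and Mrpl58 overlap those of another gene, and 5 of the 7 calls had no such overlap.

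**Figure D3:**
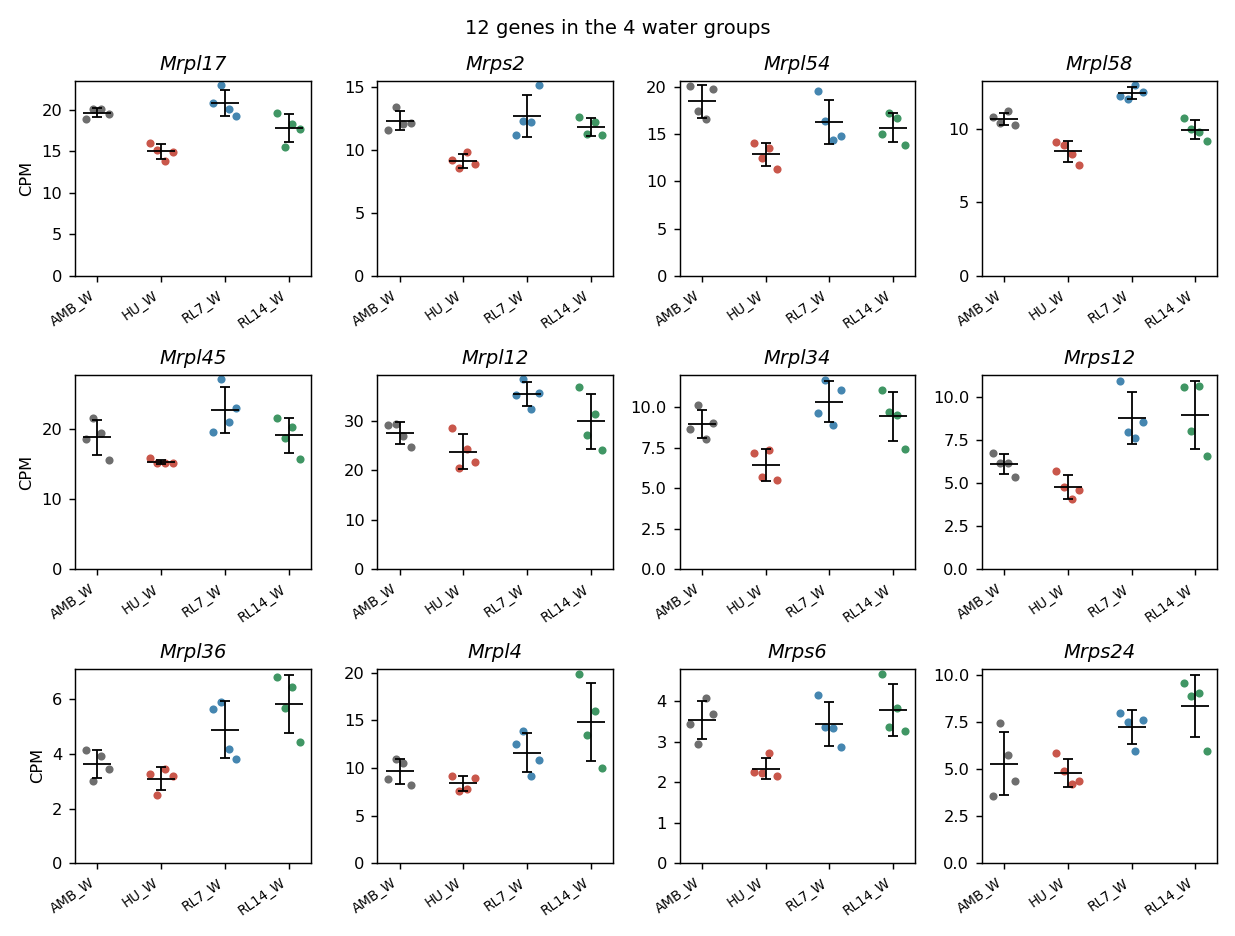
CPM (vertical axes, starting at 0) of 12 genes in the 4 water groups AMB_W, HU_W, RL7_W and RL14_W; points are libraries and bars the mean and SD (n = 4). Each gene has at least 1 comparison with HU_W at an adjusted p under 0.05. Mrpl17, Mrps2 and Mrpl54 are lower in all HU_W than in all AMB_W libraries, and Mrpl36 and Mrpl4 are highest in RL14_W.

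Other genes of the pathway rose at 7 d as well. Taco1 averaged 22.3 ± 1.16 CPM in RL7_W and 11.9 ± 2.56 CPM in HU_W (SD, n = 4 each; log2 fold change 0.91 ± 0.14 SE, edgeR adjusted p = 3.46e-05). Tufm, the mitochondrial elongation factor Tu, averaged 34.8 ± 3.77 CPM in RL7_W and 22.7 ± 3.82 CPM in HU_W (log2 fold change 0.62 ± 0.14 SE, edgeR adjusted p = 0.00362). Both calls held without any 1 library and in the 11 other settings. They were 2 of 13 translation factors, whose median was 0.24, and 0 of these fell.

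Of 25 assembly factors 2 rose and 0 fell, with a median of 0.23. Tfb1m had a log2 fold change of 0.52 (edgeR adjusted p = 0.0312), and Mrm1, a methyltransferase of the large mitochondrial rRNA, averaged 2.32 CPM in RL7_W and 1.05 CPM in HU_W (log2 fold change 1.14, edgeR adjusted p = 0.0156). These calls were lost without any 1 of 6 libraries for Tfb1m and of 3 for Mrm1. Among the 12 regulators of biogenesis 1 rose. Ppargc1b, which encodes the coactivator PGC-1 beta, averaged 23.6 ± 4.49 CPM in RL7_W and 12.6 ± 2.06 CPM in HU_W (log2 fold change 0.90, edgeR adjusted p = 0.0197, lost without HU_W 2 or RL7_W 2). The Ppargc1b call was also lost with the 5.8S covariate, with no filter on low counts and without the Alb-rich libraries. The other regulators, named for their roles after their values were seen, did not pass. Ppargc1a had -0.32 ± 0.29 SE (edgeR adjusted p = 0.565), Nrf1 0.02 (0.965) and Gabpa -0.14 (0.674). No synthetase of 19 and none of the 5 further mitoribosomal proteins changed, with medians of 0.17 and 0.20 and edgeR adjusted p of 0.05 or above throughout. The 36 complex I genes had a median of 0.25 and 2 calls, all higher, and the cytosolic ribosomal proteins a median of 0.00 and 0 calls. Of the 13 mRNAs of the mitochondrial genome 1 fell, with a median of -0.38.

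In this comparison 3 of 6 red blood cell markers were lower and 3 of 6 endothelial markers higher in RL7_W, with endothelial sums of 189 to 258 CPM in RL7_W and 130 to 164 CPM in HU_W. Their part in the members' values was not tested. Against AMB_W, 0 of 78 members changed in RL7_W, beside 0% of all genes tested, and the median was 0.05. At an unadjusted p under 0.05 there were 5 members, beside 8.05% of all genes. DESeq2 and limma voom called 0, beside 20 and 156 of 16668 genes. The 2 higher members with the smallest p were Mrpl23, with a log2 fold change of 0.32, and Mrps12, with 0.52 (edgeR adjusted p = 0.504 and 0.56).

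The second week of reloading was asked about with RL14_W against HU_W and RL14_W against RL7_W. Against HU_W, 10 members rose and 0 fell, beside 5.5% of all genes higher and 4.22% lower. The median was 0.14, against 0.03 over all genes, and 53 of 78 members were positive, beside 53% of all genes. This median was 0.26 with the 5.8S gene as a covariate, with 69 members positive, and 0.04 under the GC correction, with 48 positive. In 15 members every RL14_W library lay above every HU_W library, beside 11.3% of all genes. All 10 have a bacterial counterpart, that is 10 of 46, beside 0 of 31 mitochondria-specific members; their medians were 0.16 and 0.07. The difference between the classes was not tested.

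Mrpl36, a large-subunit protein on chromosome 13 from 73328513 to 73332178 on the plus strand, had 6.81, 5.67, 6.47 and 4.42 CPM in RL14_W, against 3.25, 2.49, 3.45 and 3.19 CPM in HU_W. The groups were apart, by 1.88-fold (log2 fold change 0.91 ± 0.21 SE, edgeR adjusted p = 0.00534), and the call held without any 1 library. Mrps12 had 10.6, 8.07, 10.6 and 6.59 CPM in RL14_W, against 5.73, 4.77, 4.07 and 4.62 CPM in HU_W (log2 fold change 0.90 ± 0.22 SE, edgeR adjusted p = 0.00745). It too was called without any 1 library, and in 10 of 11 other settings, the exception being the 5.8S covariate.

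Mrpl4, whose bacterial relative lines the exit tunnel, lies on chromosome 9 from 21002738 to 21008839 on the plus strand. It had 19.8, 13.4, 16 and 10.02 CPM in RL14_W, against 9.14, 7.59, 7.81 and 8.96 CPM in HU_W (log2 fold change 0.82 ± 0.21 SE, edgeR adjusted p = 0.0107). The spread within RL14_W was wide, and without RL14_W 1 the adjusted p was 0.0755. Mrps6 had 4.68, 3.37, 3.82 and 3.25 CPM in RL14_W, against 2.26, 2.22, 2.71 and 2.15 CPM in HU_W (log2 fold change 0.69 ± 0.19 SE, edgeR adjusted p = 0.0165). Mrps16 had 10.6, 9.34, 9.29 and 8.41 CPM in RL14_W, against 7.27, 6.72, 7.24 and 6.99 CPM in HU_W (log2 fold change 0.41 ± 0.12 SE, edgeR adjusted p = 0.0214). Both small-subunit genes were higher in every RL14_W library, and both lost the call without RL14_W 1, HU_W 2 or HU_W 4, Mrps16 also without HU_W 3 or RL14_W 3.

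Mrpl10, at the base of the stalk, had 11.7, 10.8, 11.2 and 9.72 CPM in RL14_W, against 9.09, 6.13, 6.28 and 7.53 CPM in HU_W (log2 fold change 0.58 ± 0.17 SE, edgeR adjusted p = 0.0256). The remaining calls were Mrpl34 (log2 fold change 0.55), Mrps2 (0.38), Mrps24 (0.80), the relative of the bacterial protein at the mRNA entry, and Mrpl55 (0.44), with edgeR adjusted p of 0.0301, 0.0338, 0.0419 and 0.0457. Mrpl55 is named to complete the count and was chosen after its values were seen. In each of these 10 genes all RL14_W libraries lay above all HU_W libraries. Mrpl10, Mrpl34, Mrps2, Mrps24 and Mrpl55 each lost the call without any 1 of 5 to 7 of the 8 libraries. With the 5.8S gene as a covariate 0 members were called, beside 0.144% of all genes. With the GC correction 6 members were called, 5 of them among the 10, beside 1057 of 16642 genes. Without the 12 Alb-rich libraries 2 were called, 1 of them among the 10, beside 420 of 17023 genes. Leaving out 1 library gave 2 calls without RL14_W 1, 3 without HU_W 2, 4 without HU_W 4 or RL14_W 3 and 5 without HU_W 3 or RL14_W 4. The exons of Mrpl36, Mrps6, Mrpl10 and Mrps24 overlap those of another gene, and 6 of the 10 calls had no such overlap.

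Among the lists in RL14_W against HU_W, 3 of 25 assembly factors rose, namely Mrm1 (log2 fold change 1.03, edgeR adjusted p = 0.024) and the GTPases of large-subunit assembly Mtg1 (0.52, 0.0348) and Mtg2 (0.71, 0.0338). Tufm rose by 0.52 on the log2 scale (edgeR adjusted p = 0.0135) and Taco1 by 0.47 (edgeR adjusted p = 0.0304), 2 of 13 translation factors. Dap3, a GTP-binding protein of the small subunit, rose by 0.34 (edgeR adjusted p = 0.0329), 1 of the 5 further mitoribosomal proteins, and Aars2, the alanyl-tRNA synthetase, by 0.57 (edgeR adjusted p = 0.0479), 1 of 19 synthetases. All 7 of these genes lost the call with the 5.8S covariate, and Mrm1, Mtg1, Mtg2, Tufm, Taco1, Dap3 and Aars2 lost it without any 1 of 4, 6, 5, 3, 6, 7 and 6 of the 8 libraries. Regulators of biogenesis gave 0 calls of 12. In the same comparison 6 of 13 mitochondrial mRNAs fell, with a median of -0.82, and mt-Rnr1 fell to 4200 ± 567 CPM in RL14_W, against 10600 ± 2500 CPM in HU_W (SD, n = 4 each; log2 fold change -1.34 ± 0.32 SE, edgeR adjusted p = 0.00695). With the 5.8S gene as a covariate that value was 0.22. Cytosolic ribosomal proteins had a median of -0.11, with 5 higher and 8 lower of 81, and complex I genes 0.17, with 3 higher and 0 lower of 36.

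The 6 red blood cell markers were all lower in RL14_W (2.69 to 4.6 CPM in RL14_W and 27.6 to 59.8 CPM in HU_W), 3 of 6 endothelial markers were higher, and of 7 skeletal muscle markers 3 were higher and 1 lower. Of 6 fibroblast markers 2 were higher, with sums of 346 to 581 CPM in RL14_W and 421 to 480 CPM in HU_W. Their part was not tested. Against AMB_W, 0 members changed in RL14_W, beside 0.174% of all genes, with a median of -0.02. At an unadjusted p under 0.05 there were 13 members, beside 17.9% of all genes. DESeq2 called 0 and limma voom 17, beside 17.8% of all genes. Mrpl36 came nearest to the threshold, with a log2 fold change of 0.68 ± 0.21 SE (edgeR adjusted p = 0.105). Against RL7_W, 0 members changed in RL14_W, beside 0.036% of all genes, with a median of -0.06 and 6 members at an unadjusted p under 0.05, beside 11.4% of all genes. DESeq2 called 0 and limma voom 7, beside 7.93% of all genes. Mrps35, a mitochondria-specific protein of the small subunit, had -0.39 and Mrpl58 -0.32 (edgeR adjusted p = 0.349 and 0.356).

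Fold changes followed the GC content of the transcripts, across members as across all genes. The members' transcripts had a median GC of 51.2%, from 40.2% to 62.2%, against 49.7% over genes tested. Across the 78 members, Spearman's rho between log2 fold change and GC was 0.54 in RL14_W against HU_W and 0.46 in RL7_W against HU_W, beside 0.45 and 0.29 across 16642 genes. In HU_W against AMB_W it was -0.21, beside -0.03. These are descriptions across genes of the same libraries. Above the median GC the members' median log2 fold change was 0.28 in RL14_W against HU_W, beside 0.27 for all such genes. Below the median GC it was 0.02, beside -0.10. In RL7_W against HU_W the members' medians were 0.28 above the median GC and 0.17 below it, beside 0.15 and -0.05 for all genes. In HU_W against AMB_W they were -0.19 and -0.15, beside -0.02 and 0.00. The 5.8S gene and GC dependence moved with the groups, and their part in single calls was tested no further than by the covariate and the GC correction.

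**Figure D4:**
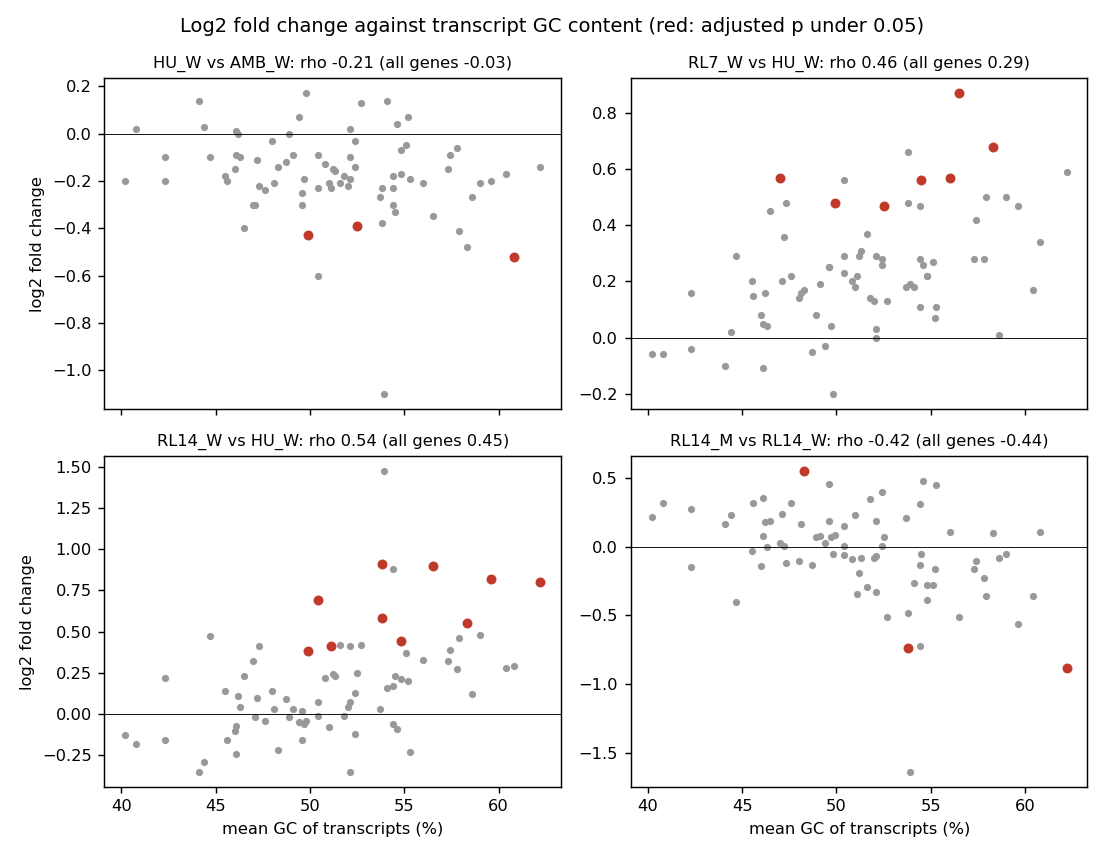
Log2 fold change (vertical axes) of the 78 genes against the mean GC content of their transcripts in percent (horizontal axes) in 4 comparisons; red points have an adjusted p under 0.05. The points climb with GC in RL7_W against HU_W (rho 0.46) and RL14_W against HU_W (rho 0.54) and descend in RL14_M against RL14_W (rho -0.42).

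Sequences before the transcription start are shown for 4 members called in RL7_W against HU_W, since the factors named above bind in such windows in other settings. The RefSeq promoter table (GRCm38.p6) holds 75 windows for 69 of the 78 members, and the 250 bases before each start were searched on both strands for the NRF1 consensus motif, CCGGAAG (GABPA and other ETS factors), AAGGTCA (ERR nuclear receptors) and AAGATGGCG (YY1). Matches are in capitals, each line runs 5′ to 3′ along the gene's strand, and the next base is the annotated start. Windows are chr7:105811088-105811337 (minus strand) for Mrpl17, chr11:97315466-97315715 (plus) for Mrpl45, chr11:115403502-115403751 (plus) for Mrpl58 and chr7:28741822-28742071 (minus) for Mrps12.
Mrpl17: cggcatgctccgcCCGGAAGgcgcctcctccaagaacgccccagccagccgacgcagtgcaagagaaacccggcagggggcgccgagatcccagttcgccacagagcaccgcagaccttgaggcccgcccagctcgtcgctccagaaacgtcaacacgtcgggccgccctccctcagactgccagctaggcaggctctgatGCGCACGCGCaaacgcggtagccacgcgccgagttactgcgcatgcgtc
Mrpl45: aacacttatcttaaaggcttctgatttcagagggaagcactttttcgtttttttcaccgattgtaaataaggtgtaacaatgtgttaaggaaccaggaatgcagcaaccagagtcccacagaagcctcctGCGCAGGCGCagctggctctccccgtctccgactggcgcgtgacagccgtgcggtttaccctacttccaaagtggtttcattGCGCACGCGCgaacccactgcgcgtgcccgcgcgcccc
Mrpl58: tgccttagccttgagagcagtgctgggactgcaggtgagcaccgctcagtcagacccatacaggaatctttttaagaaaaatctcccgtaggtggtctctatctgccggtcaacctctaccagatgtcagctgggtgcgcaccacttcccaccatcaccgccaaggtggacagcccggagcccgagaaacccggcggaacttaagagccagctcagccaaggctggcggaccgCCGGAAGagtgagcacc
Mrps12: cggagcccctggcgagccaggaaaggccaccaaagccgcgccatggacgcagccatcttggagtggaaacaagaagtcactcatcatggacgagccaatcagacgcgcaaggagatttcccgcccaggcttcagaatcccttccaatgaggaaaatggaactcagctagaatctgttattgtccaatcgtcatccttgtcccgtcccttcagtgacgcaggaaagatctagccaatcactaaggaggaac

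The NRF1 motif was found in 10 of the members' 75 windows, 13.3%, beside 3.74% of all 32851 windows of the table and 5.35% of those of protein-coding genes. The CCGGAAG motif was in 18 windows, 24%, beside 6.91% and 9.28%. AAGATGGCG was in 2 windows (2.67%, beside 0.606% and 0.75%) and AAGGTCA in 3 (4%, beside 4.08% and 3.56%). Mrpl17 holds 1 match to each of the first 2 motifs, 49 and 237 bases before its start, Mrpl45 has 2 NRF1 matches at 120 and 38 bases, and Mrpl58 has CCGGAAG at 17 bases. Mrps12, with the largest fold change of the 7 members called at 7 d, holds none of these letters in its window. Matches are descriptions and show no binding. A protein-coding gene starts on the opposite strand within 500 bases before the start of 17 of 78 members (21.8%), beside 6.13% of 21974 protein-coding genes, among them Sars2 at 172 bases from Mrps12 and Apba3 at 26 bases from Mrpl54.

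How far the members move together within a group was described from deviations from the group means over the 52 libraries. The median Pearson correlation over 3003 pairs of members was 0.23, and 75% of pairs were positive, beside 0.00 over pairs of all genes. Pairs within the large subunit had a median of 0.27 and pairs within the small subunit 0.15, against 0.47 for the cytosolic ribosomal proteins and 0.61 for complex I. The mean of the members deviated with the mean of complex I genes, with r = 0.95 over the 52 libraries, and with that of cytosolic ribosomal proteins with r = 0.67. All these values share libraries, depth and the GC dependence given above.

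The drinks were compared with water at each time, in 3 comparisons that share the water group. During unloading 0 members changed in HU_M, HU_L or HU_ML against HU_W, beside 0%, 0.006% and 0.048% of all genes, with medians of -0.03, 0.06 and 0.10. At an unadjusted p under 0.05 these were 2, 3 and 5 members, beside 3.88%, 2.99% and 6.23% of all genes, and DESeq2 and limma voom called 0 in each. Over all 16668 genes DESeq2 called 14, 6 and 23, and limma voom 0, 0 and 55. Mrps5, a small-subunit protein, had log2 fold changes of 0.20 in HU_M and 0.36 in HU_L (edgeR adjusted p = 0.999 and 1), and Mrps12 had 0.53 in HU_ML (edgeR adjusted p = 0.665). At 7 d of reloading 0 members changed with any drink, beside 0.138%, 0.078% and 0.006% of all genes for RL7_M, RL7_L and RL7_ML, with medians of -0.02, -0.07 and 0.04. At an unadjusted p under 0.05 there were 8, 5 and 8 members, beside 13.7%, 9.01% and 9.09%. DESeq2 called 0 in each, beside 78, 38 and 21 of 16668 genes. With limma voom there were 1, 0 and 2 members, beside 444, 144 and 634 genes. Mrps15 had -0.48 in RL7_M (edgeR adjusted p = 0.191), Mrps35 -0.34 in RL7_L (edgeR adjusted p = 0.526) and Mrpl52 0.42 in RL7_ML (edgeR adjusted p = 0.421).

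At 14 d of reloading 1 member rose and 2 fell in RL14_M against RL14_W, beside 1.54% of all genes higher and 3.58% lower. These shares are near the background, so they are no result about the members. The median over the 78 was -0.02. Mrps35 had 20.9, 15.6, 16.6 and 16.5 CPM in RL14_M, against 13.3, 10.02, 11.8 and 12.6 CPM in RL14_W. All RL14_M libraries were higher (log2 fold change 0.55 ± 0.15 SE, edgeR adjusted p = 0.0286). Mrpl36 had 3.30, 4.49, 3.76 and 2.39 CPM in RL14_M, against 6.81, 5.67, 6.47 and 4.42 CPM in RL14_W. The groups touched, since RL14_M 2 lay above RL14_W 5 (log2 fold change -0.74 ± 0.21 SE, edgeR adjusted p = 0.0323).

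Mrps24 had 3.70, 5.28, 5.495 and 3.68 CPM in RL14_M, against 9.60, 8.90, 9.06 and 5.94 CPM in RL14_W (log2 fold change -0.88 ± 0.26 SE, edgeR adjusted p = 0.0372). The groups did not overlap, RL14_W 5 being the lowest of its own. The count of 3 became 0 without RL14_W 3, RL14_W 4, RL14_M 1 or RL14_M 6, 1 without RL14_W 1 and 6 without RL14_W 5. It was also 0 with no filter on low counts and with the 5.8S covariate, beside 195 of 36274 and 0 of 16668 genes. For 2 of the 3 genes, Mrpl36 and Mrps24, RL14_W was also the higher group against HU_W. Dap3 fell (log2 fold change -0.40, edgeR adjusted p = 0.022) and Mettl15, a methyltransferase of the small mitochondrial rRNA, rose (0.76, edgeR adjusted p = 0.0464) in RL14_M. Dap3 lost the call without any 1 of 4 of the 8 libraries and Mettl15 of 6, and both lost it with the 5.8S covariate, the GC correction or without the Alb-rich libraries. In this comparison all 6 red blood cell markers were higher, with sums of 9.98 to 65.3 CPM in RL14_M and 2.69 to 4.6 CPM in RL14_W, and of 7 skeletal muscle markers 1 was higher and 2 lower. Slow fibre markers summed to 624 to 1400 CPM in RL14_M and to 3.62 to 638 CPM in RL14_W, with 0 calls. Their part in the members' values was not tested.

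RL14_L against RL14_W gave 0 calls among members, beside 0.294% of all genes, with a median of 0.01 and 14 members at an unadjusted p under 0.05, beside 16.7% of all genes. DESeq2 called 1 and limma voom 5, beside 188 and 1344 of 16668 genes. Mrpl39 came nearest, with 0.59 ± 0.16 SE (edgeR adjusted p = 0.0896). RL14_ML against RL14_W gave 1 call, lower, beside 0.342% of all genes lower and 0.372% higher, with a median of -0.07 and 25 members positive. Without RL14_ML 1 and 6 the median was 0.01, with 42 positive. Mrpl11, of the stalk base, had 5.40, 7.95, 8.73 and 8.61 CPM in RL14_ML, against 11.04, 10.3, 13 and 9.15 CPM in RL14_W. The groups did not overlap (log2 fold change -0.50 ± 0.13 SE, edgeR adjusted p = 0.0386). The call was lost without RL14_W 1, 3 or 4 or RL14_ML 3. It held in 3 of 11 other settings, over which the log2 fold change ran from -0.57 to -0.36. Among the settings that lost it were the 5.8S covariate, the GC correction and fits without the Alb-rich libraries or without RL14_ML 1 and 6. RL14_ML 1 was the lowest library of all 52 in the members' mean, and without it 11 members were called in place of 1, beside 14.7% of all genes. Of the red blood cell markers 1 was higher, with sums of 5.41 to 23.1 CPM in RL14_ML and 2.69 to 4.6 CPM in RL14_W, and their part was not tested. Lars2, the leucyl-tRNA synthetase, averaged 652 ± 406 CPM in RL14_ML and 279 ± 70.2 CPM in RL14_W (SD, n = 4 each; log2 fold change 1.22, edgeR adjusted p = 0.0391, lost without RL14_ML 6 or RL14_W 3, 4 or 5). The Lars2 call held in 3 of 11 other settings, over which its log2 fold change ran from 0.12 to 1.23. It was lost with the 5.8S covariate, with limma voom, without the Alb-rich libraries and without RL14_ML 1 and 6, among others.

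The RNAs of the same ribosome differed far more than its protein genes at this time. mt-Rnr1 had 34540, 22310, 19070 and 26800 CPM in RL14_M, against 4361, 3583, 3949 and 4903 CPM in RL14_W. Every RL14_M library was above every RL14_W library (log2 fold change 2.61 ± 0.33 SE, edgeR adjusted p = 5.62e-06), and the log2 fold change was 2.62 in RL14_L and 3.11 in RL14_ML. mt-Rnr2 had 2.63, 2.46 and 3.42 in RL14_M, RL14_L and RL14_ML. Of 13 mitochondrial mRNAs 10, 6 and 9 rose, and 0 fell. Of the 81 cytosolic ribosomal proteins, 1 rose and 17 fell in RL14_M, 1 fell in RL14_L and 18 fell in RL14_ML. Over the same comparisons n-R5-8s1 ran from 11.6 to 23.03 CPM in RL14_M, from 9.14 to 26.9 CPM in RL14_L and from 16.6 to 33.01 CPM in RL14_ML, against 0.294 to 0.998 CPM in RL14_W. With it as a covariate mt-Rnr1 was called in none of the 3, with an adjusted p of at least 0.877. The level of n-R5-8s1 and the drinks cannot be told apart here.

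**Figure D5:**
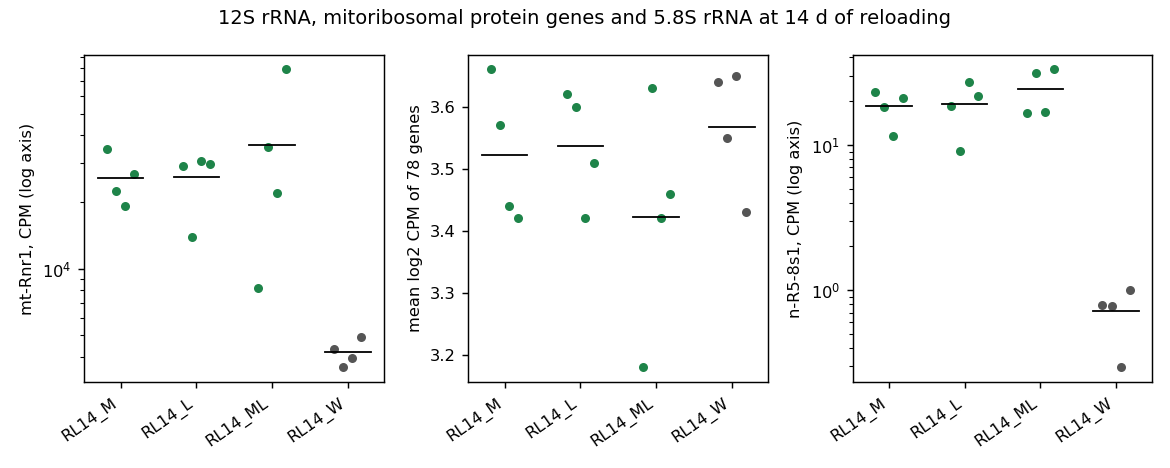
Levels of mt-Rnr1 in CPM (left, log axis), mean log2 CPM of the 78 genes (middle) and n-R5-8s1 in CPM (right, log axis) in the 4 libraries of RL14_M, RL14_L, RL14_ML and RL14_W; lines are group means. mt-Rnr1 and n-R5-8s1 are lowest in RL14_W, while the members' means overlap between all 4 groups.

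Whether drink effects differed between the 3 times was tested with 6 interaction terms in 1 F test. It called 0 of 78 members, beside 0.93% of all genes, with 12 members at an unadjusted p under 0.05, beside 16.4% of all genes. The members with the smallest p were Mrpl11 (edgeR adjusted p = 0.0942), Mrps35 (0.109), Mrpl52 (0.143) and Mrpl53 (0.145). DESeq2 called 2 members, beside 3.88% of all genes, and limma voom 21, beside 22.6%. Without RL14_ML 1 edgeR called 12, beside 15.5%.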

How the data were processed

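The deposited table holds raw counts per gene made by the authors for 52 libraries, 4 in each of 13 groups. Per the submitters' processing notes, STAR 2.7.3a, featureCounts 1.6.3, DESeq2 1.30.0 and GRCm38 were used, and per the labels the libraries were stranded total RNA depleted of ribosomal RNA. Nothing beyond the group size says how libraries map to animals, so p-values measure the spread between these samples. No 2 replicates agreed within sampling noise (lowest chi-square per degree of freedom 7.47 over 78 pairs).

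Gene names and types came from GENCODE vM21. Counts were filtered with filterByExpr (minimum count 10), scaled with TMM factors and fitted with edgeR 4.0.16 (robust quasi-likelihood, 1 mean per group, 39 residual degrees of freedom, R 4.3.3). Benjamini-Hochberg adjustment of p-values covered all 16668 genes, with a threshold of 0.05. Standard errors are the absolute log2 fold change divided by the square root of F, and their median over members was 0.151 to 0.154 by comparison. Log2 CPM used a prior count of 2. Scripts were tested on simulated data. DESeq2 1.42.0 and limma 3.58.1 served as alternatives, beside other filters and scalings, covariates and left-out libraries.

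Named members were, per comparison, up to 6 called in each direction with the smallest p, or 2 in each direction where none was called. Added to these were the smallest p of the F tests, the extremes of level and range, members with well-known roles and those with overlaps or pseudogenes. Of other lists, the 2 called genes with the smallest p per direction were named, and further ones to complete small counts. The members and lists were chosen with earlier results of these data known.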

Additional observations from a re-analysis of the deposited data

Results flagged for a closer look

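Mrpl45 in HU_W had 1 library apart from the others, HU_W 1 with 15.8 CPM beside 15 to 15.1 CPM in the other libraries. The gap was 0.901 of the group's range, above Dixon's 95% critical value for 4 samples. It was the only such case among the 54 groups of 4 examined, and chance flags about 1 in 20.

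The effect of the drinks on both mitochondrial ribosomal RNAs differed between the times, by the edgeR interaction test, with an adjusted p of 3.56e-07 for mt-Rnr1 and 8.8e-06 for mt-Rnr2. The same test called 0 of the 78 protein genes. The 5.8S gene n-R5-8s1 also ranged from 0.294 to 0.998 CPM in RL14_W and was above that in every other library at 14 d. With it as a covariate the adjusted p was 1 for both mitochondrial RNAs, and 0.024% of all genes were called, beside 0.93% without it. The drinks and n-R5-8s1 cannot be told apart at 14 d.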

How the results depend on the processing

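Counts of members called depended on the tool and on single libraries. With limma voom they were 8 in HU_W against AMB_W (3 in the report), 17 in RL14_W against AMB_W (0), 22 in RL7_W against HU_W (7), 27 in RL14_W against HU_W (10), 7 in RL14_W against RL7_W (0), 1 in RL7_M and 2 in RL7_ML against RL7_W (0 each), and 23, 5 and 17 in RL14_M, RL14_L and RL14_ML against RL14_W (3, 0 and 1). The F test over 13 groups gave 56 (34) and the interaction 21 (0). The same fits called 8.17%, 17.8%, 16.5%, 26.8%, 7.93%, 2.66%, 3.8%, 23.4%, 8.06%, 18.1%, 63.6% and 22.6% of all genes, in that order, so calls were more frequent across all genes. DESeq2 gave 6 in RL14_M, 1 in RL14_L and 2 in the interaction, beside 1339, 188 and 647 of 16668 genes. With no filter on low counts there were 0 in HU_W against AMB_W, 3 in RL14_W against HU_W and 0 in RL14_M and RL14_ML. Over all 36274 genes these fits called 318, 757, 195 and 59, in that order. Fits of the compared groups alone gave 1 and 9 in RL7_W and RL14_W against AMB_W, 17 in RL7_W against HU_W, 1 in RL14_W against RL7_W and 12, 2 and 0 in RL14_M, RL14_L and RL14_ML. Over all genes these fits called 260, 2029, 2033, 389, 2188, 231 and 2, in that order, of 14314 to 14638 tested. Without the 12 Alb-rich libraries there were 0, 3 and 2 in the HU_W comparisons with AMB_W, RL7_W and RL14_W, beside 123, 248 and 420 of 17023 genes. Without RL14_ML 1 and 6 there were 6 in RL14_W against AMB_W, 13 in RL7_W against HU_W, 1 in RL14_W against RL7_W, 3 in RL7_M, 12, 7 and 3 in RL14_M, RL14_L and RL14_ML, and 10 in the interaction. The genes called in all were 1408, 1355, 270, 635, 2292, 1112, 1176 and 2114 of 17446, in that order. With the 5.8S covariate there were 0 in RL14_W against HU_W, RL14_M and RL14_ML, and 8 in the F test. Over all 16668 genes these fits called 24, 0, 0 and 2294, in that order. With that covariate mt-Rnr1 reversed in RL14_W, to 0.15 against AMB_W and 0.22 against HU_W. The GC correction, chosen after seeing the data, gave 6 in RL14_W against HU_W, 0 in RL14_ML and 22 in the F test. Over all 16642 genes these were 1057, 145 and 5370. Over nuclear protein-coding genes alone RL14_ML had 0, beside 33 of 13300 genes. The cause was not tested in any of these.

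Replicate numbers did not pair the libraries, since no comparison had every pair's correlation over 0.1. With the replicate number as a block there were 16 calls in RL14_W against HU_W, 0 in RL14_ML against RL14_W and 1 in the interaction. Over all 16668 genes these fits called 1757, 47 and 189, in that order. Leaving out 1 library gave 0 to 2 calls in HU_W against AMB_W, 4 to 8 in RL7_W against HU_W, 2 to 15 in RL14_W against HU_W, 0 to 6 in RL14_M, 0 to 11 in RL14_ML, 29 to 47 in the F test and 0 to 12 in the interaction. These ranges stand without the shares of all genes, so they describe only how the members' counts moved.

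Of 165 medians over the members recomputed, 162 moved by less than the SD of 0.105 between replicates; the others were RL14_W against HU_W, with 0.26 under the 5.8S covariate and 0.04 under the GC correction, and RL7_M against RL7_W, with -0.13 without the Alb-rich libraries. The median of RL14_ML against RL14_W changed sign, from -0.07 to 0.01, without RL14_ML 1 and 6. None of 120 medians moved so far when 1 library was left out. With 4 libraries a group and a median SE near 0.15, small changes of single members were not detectable.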
